A study of Mus musculus with 7 samples.

Results

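Fkbp11 and 7 other prolyl isomerase genes were measured in sorted pancreatic islet β-cells of mice fed a high fat diet (HFD) or a chow diet (CD). Fkbp11 was selected on its measured transcript level, which had been seen to be higher on HFD in these same libraries. The other 7 genes were taken for their family and place in the cell, but with earlier results of these data known. Their values are therefore not independent support. Beside Fkbp11 stand 5 more prolyl isomerases of the endoplasmic reticulum (ER), Fkbp2, Fkbp7, Fkbp9, Fkbp14 and Ppib, and the cytosolic Fkbp1a and Ppia as a contrast. These 8 genes were found by symbol among 24035 genes of the count table, and 7 of the 8 passed the filter on low counts, Ppia being the exception. All mice were of the C57BL/6N strain by the labels (C57BL/6NCrl in the study's methods), no modified allele is named for them, and each diet lasted 2 days. β-cells were sorted by flow cytometry from islets, and polyadenylated RNA was sequenced from 3 HFD mice (replicates 2, 3 and 4) and 4 CD mice (replicates 1 to 4), 1 mouse per library. The comparison asks how β-cell transcripts respond early in high fat feeding.

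Peptide bonds that precede a proline can take a cis or a trans form, and the slow exchange between these forms can limit how fast a protein folds. Peptidyl-prolyl isomerases speed up that exchange. They fall into the FK506-binding proteins (FKBPs), the cyclophilins, which bind cyclosporin, and the parvulins. Members with a signal peptide act in the ER, where a β-cell folds proinsulin in large amounts, while the other members act in the cytosol, nucleus or mitochondria.

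In the GRCm38 annotation, Fkbp11 lies at chr15:98724366-98728198 on the minus strand and Fkbp2 at chr19:6977741-6980501 on the minus strand. Fkbp7 lies at chr2:76663044-76673116 (minus), Fkbp14 at chr6:54577604-54597308 (minus) and Fkbp9 at chr6:56832059-56879358 (plus). Ppib lies at chr9:66060222-66066623, Fkbp1a at chr2:151542483-151561692 and Ppia at chr11:6415443-6419817, all on the plus strand. The bases just upstream of the start site are shown for the 3 genes whose HFD libraries all exceeded the CD libraries (Fkbp11, Fkbp2 and Ppib) and for Fkbp9, whose libraries overlapped. They come from the RefSeq promoter table of build GRCm38.p6, with annotated exon bases left off, and are written 5′ to 3′ on the strand of the gene. Capitals mark ACGTG or CCAAT on either strand, short motifs that occur in promoters of genes of the unfolded protein response and in many other promoters.
Fkbp11 (chr15:98728199-98728348, minus strand): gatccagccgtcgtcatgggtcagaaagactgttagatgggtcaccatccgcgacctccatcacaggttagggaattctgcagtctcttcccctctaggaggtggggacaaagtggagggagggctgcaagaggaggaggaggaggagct
Fkbp2 (chr19:6980502-6980614, minus strand): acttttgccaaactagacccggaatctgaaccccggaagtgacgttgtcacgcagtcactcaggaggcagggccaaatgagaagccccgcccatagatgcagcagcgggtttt
Ppib (chr9:66060019-66060168, plus strand): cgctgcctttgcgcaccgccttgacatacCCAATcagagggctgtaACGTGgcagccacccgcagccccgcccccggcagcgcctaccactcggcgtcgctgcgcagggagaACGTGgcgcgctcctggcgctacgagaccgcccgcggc
Fkbp9 (chr6:56831909-56832058, plus strand): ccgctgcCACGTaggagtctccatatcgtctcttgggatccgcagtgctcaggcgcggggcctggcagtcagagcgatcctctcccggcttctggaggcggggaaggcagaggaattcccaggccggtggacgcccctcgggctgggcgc

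The Ppib window held ACGTG at 104 and 38 bases upstream of the start and CCAAT at 121 bases upstream. It held CCAAT also at 160 bases upstream, before the printed stretch. The Fkbp9 window held 1 ACGTG on the opposite strand and the printed stretches of Fkbp11 and Fkbp2 held neither motif. Beyond these stretches, CCAAT stood 30 bases upstream of the Fkbp2 start, in bases left off as exon, at 191 bases in another Fkbp2 window, and at 85 bases in the second RefSeq window of Fkbp11, each counted from the start of its own window’s transcript. Over all 32851 RefSeq windows, searched on both strands in the 250 bases before each start, 16.6% held ACGTG and 33.9% held CCAAT. The full ER stress element, CCAAT followed after 9 bases of any kind by CCACG, was in 0.113% of windows and in none of the windows of the 8 genes. Of 39 genes with a window in a list of ER folding and protein entry, 10 held this element (25.6%). That list also held stress sensors and degradation genes of the ER. The 8-letter motif TGACGTGG was in 0.563% of windows, in 2 of the 39 ER genes and in none of the 8. These matches describe letters only and were not tested as binding sites.

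The 7 libraries held 10559175 to 14391602 counts on HFD and 11145642 to 22557957 counts on CD. Ins1 and Ins2 together made up 29.9 to 30.9% of counts on HFD and 27.7 to 29.0% on CD, and all 10 β-cell markers were detected. HFD replicate 3 stood apart, with 9627 genes detected against 12484 to 14600 in the other libraries. There, a count of 0 was recorded for 807 of the 9443 genes (8.55%) whose count was 50 or more in all 6 of the others. Results are therefore also given without that library. Values below are library-scaled counts (CPM, the count of a gene divided by the total count of its library and put on a common scale by the trimmed mean of M-values), and SD is the standard deviation between libraries. Fold changes are HFD over CD, from edgeR's quasi-likelihood test, with p-values adjusted over 12354 genes by the Benjamini-Hochberg method. At an adjusted p under 0.05 that test called 0 genes (0.0% of those tested), and 713 (5.77%) had a p under 0.05 before adjustment, 2.86% being higher on HFD and 2.91% lower. With DESeq2, 137 genes (1.11%) passed after adjustment. Since the tissue was profiled in bulk, fewer cells of a type and less RNA per cell cannot be told apart.

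Fkbp11 transcript was 1.77-fold higher on HFD than on CD. FKBP11 is an ER FKBP with a membrane anchor, found mainly in secretory tissues. It had 86.2, 73.1 and 75.8 CPM in HFD replicates 2, 3 and 4, against 47.0, 39.5, 43.9 and 46.4 CPM in CD replicates 1 to 4. The lowest HFD library lay well above the highest CD library. These values rested on 1168, 799 and 1092 counts on HFD and on 560, 442, 978 and 655 counts on CD. The HFD mean was 78.4 ± 6.93 CPM (SD, n = 3) and the CD mean 44.2 ± 3.43 CPM (SD, n = 4). The log2 fold change was 0.83 (SE 0.14), and it was 0.86 without HFD replicate 3. No test is given, because the gene was chosen for this difference. On CD its coefficient of variation was 7.77%, where counting error alone would give 4.06%.

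Fkbp2 and Ppib, both soluble proteins of the ER lumen, were the other members whose 3 HFD libraries all exceeded the 4 CD libraries. Such a separation was seen in 4.03% of the 12354 genes, and the opposite one, all HFD libraries below all CD libraries, in 5.37%, which none of the 8 genes showed. Fkbp2 had 146.2, 117.8 and 121.2 CPM on HFD, against 84.7, 82.1, 101.3 and 85.9 CPM on CD. The means were 128.4 ± 15.5 CPM on HFD (SD, n = 3) and 88.5 ± 8.65 CPM on CD (SD, n = 4), a ratio of 1.45. HFD replicate 2 was the highest library and CD replicate 3 came nearest to the HFD libraries. The log2 fold change was 0.54 (SE 0.14), with an adjusted p of 0.666 in edgeR and an unadjusted p of 0.00302. DESeq2 gave an adjusted p of 0.0103 for the same gene, so that its call depended on the tool. Of all genes tested, 2.86% were higher on HFD at an unadjusted p under 0.05, and 2.99% were when HFD replicate 3 was left out.

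Ppib encodes cyclophilin B, which works in the ER and, with the prolyl 3-hydroxylase complex, on collagen chains. It had 125.0, 180.6 and 123.7 CPM in HFD replicates 2, 3 and 4, against 98.2, 91.2, 104.9 and 98.6 CPM in CD replicates 1 to 4. The CD libraries lay close together, while HFD replicate 3 stood above the other HFD libraries. The mean was 143.1 ± 32.5 CPM on HFD (SD, n = 3) and 98.2 ± 5.59 CPM on CD (SD, n = 4). The log2 fold change was 0.54 (SE 0.16), with an adjusted p of 0.761 and an unadjusted p of 0.00647 in edgeR, and an adjusted p of 0.0501 in DESeq2. Without HFD replicate 3 the log2 fold change was 0.33, with an unadjusted p of 0.0345 and an adjusted p of 0.711 in edgeR. Exons of Snx22 overlap Ppib on the opposite strand, but Snx22 had 23 counts in HFD replicate 2 and 0 in the other 6 libraries.

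**Figure D1:**
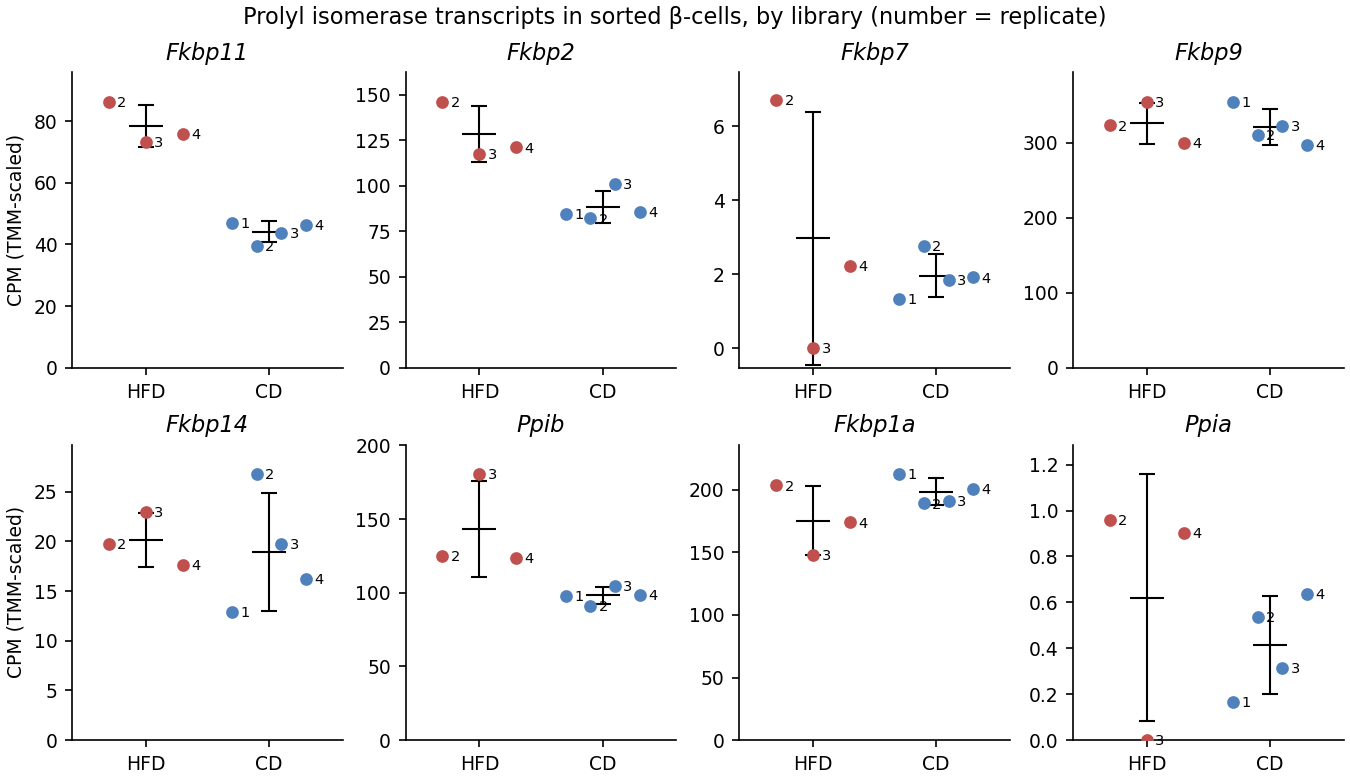
CPM of the 8 genes in each library, HFD left and CD right, with each point marked by its replicate number and bars giving the mean ± SD (n = 3 and 4). Every HFD point of Fkbp11, Fkbp2 and Ppib lies above every CD point, while the points of the other 5 genes overlap between diets. The y-axes differ between genes.

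Fkbp9, another FKBP of the ER lumen, had the most counts of the 8 genes and nearly equal means on the 2 diets. It had 322.9, 354.3 and 299.9 CPM on HFD, against 354.1, 310.3, 322.0 and 296.8 CPM on CD. The highest library of each diet was at 354 CPM and the ranges covered each other. HFD over CD, this came to a log2 fold change of 0.02 (SE 0.11; adjusted p = 0.977, edgeR), and it was -0.06 without HFD replicate 3.

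Fkbp14 is an ER FKBP linked to collagen folding, and loss of it in humans causes a form of Ehlers-Danlos syndrome. It had 19.8, 23.0 and 17.6 CPM on HFD, against 12.9, 26.8, 19.8 and 16.2 CPM on CD. All HFD libraries lay between the lowest and the highest CD library. Its log2 fold change was 0.09 (SE 0.33; adjusted p = 0.968, edgeR), and it turned to -0.03 without HFD replicate 3 and to -0.05 without CD replicate 1. Exons of Plekha8 overlap Fkbp14 on the opposite strand, and whether the counts were split by strand is not given in the sources used here. Plekha8 itself had 14.4, 0 and 15.1 CPM on HFD, against 8.81, 17.9, 10.5 and 13.0 CPM on CD. The 0 was in HFD replicate 3, where many genes well counted elsewhere were at 0.

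Fkbp7 encodes an ER FKBP that binds the chaperone BiP in the mouse. It was the lowest ER member, with 91, 0 and 32 counts on HFD and 16, 31, 41 and 27 counts on CD. In CPM these were 6.72, 0 and 2.22 on HFD, against 1.34, 2.77, 1.84 and 1.91 on CD. The HFD libraries held both the highest and the lowest value. By counting error alone, a count of 0 in HFD replicate 3 allows up to 0.275 CPM (3 counts). That library also held 0 for 807 of 9443 genes with 50 or more counts in all the others. Its 0 for Fkbp7 therefore sets no firm upper limit. Fkbp7 had a log2 fold change of 0.60 (SE 1.34; adjusted p = 0.952, edgeR), it was 1.17 without HFD replicate 3, and it was -0.81 without HFD replicate 2, so that its direction rested on single libraries.

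The cytosolic Fkbp1a and Ppia did not separate the diets. Fkbp1a encodes the small FKBP through which FK506 and rapamycin act. It had 203.4, 148.2 and 173.9 CPM on HFD, against 212.5, 189.1, 191.3 and 200.8 CPM on CD. HFD replicates 3 and 4 lay below all CD libraries, while HFD replicate 2 lay among them. For Fkbp1a the log2 fold change was -0.18 (SE 0.13; adjusted p = 0.904 and unadjusted p = 0.196, edgeR). It was -0.09 without HFD replicate 3, and -0.31 with an unadjusted p of 0.0455 (edgeR) without HFD replicate 2.

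Ppia, which encodes cyclophilin A, an abundant cytosolic protein and the main target of cyclosporin, had almost no counts. There were 13, 0 and 13 counts on HFD and 2, 6, 7 and 9 counts on CD, which was 0.960, 0 and 0.902 CPM on HFD and 0.168, 0.536, 0.314 and 0.638 CPM on CD. The gene was under the filter with all 7 libraries. Without HFD replicate 3 it passed, with a log2 fold change of 1.15 (SE 1.27; adjusted p = 0.903 and unadjusted p = 0.386, edgeR). Of the 50-base stretches of its longest protein-coding transcript, 27.4% occurred without a mismatch in the transcripts of other genes, 75 in number, of which 35 were pseudogenes. The stretch below is one of them, from the coding sequence in exon 4 of 5 (GRCm38, chr11:6419194-6419243, plus strand), and it was found in transcripts of 17 other genes. It is shown because reads from it fit several genes equally well, and how the counting treated such reads is not given in the sources used here. The Ppia values therefore cannot be read as the level of the transcript, and their contrast with the ER members is uncertain.
Ppia: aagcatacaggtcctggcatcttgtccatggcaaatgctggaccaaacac

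By comparison, 3.56% of the 50-base stretches of Ppib and 0.187% of those of Fkbp1a occurred in another gene, a pseudogene in each case. For Fkbp11, Fkbp2, Fkbp7, Fkbp9 and Fkbp14 the share was 0%.

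**Figure D2:**
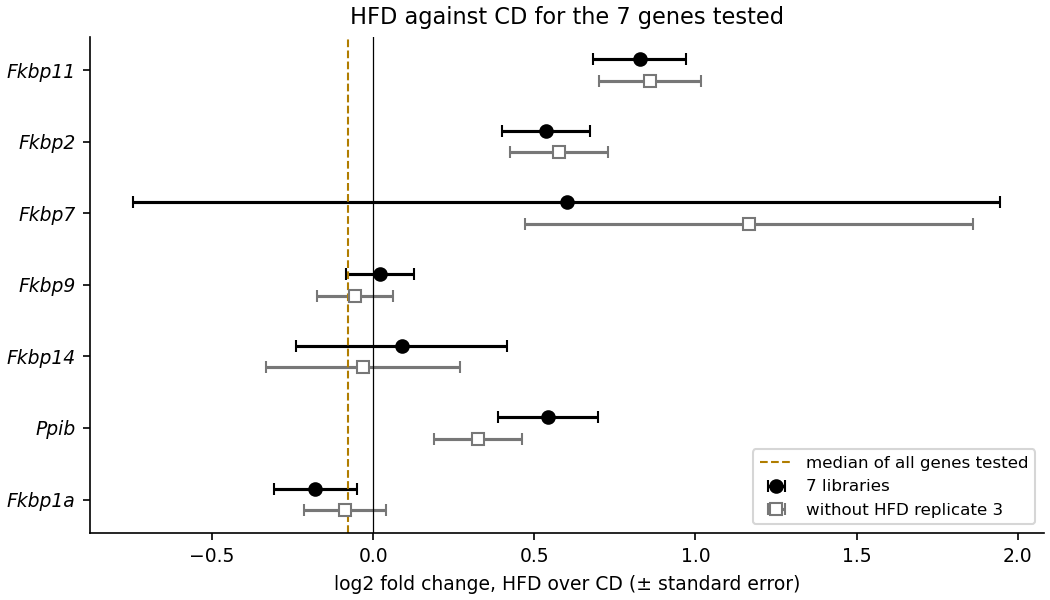
Log2 fold change, HFD over CD, of the 7 genes that passed the filter, with all 7 libraries and without HFD replicate 3; bars give ± 1 SE. Fkbp11, Fkbp2 and Ppib lie above 0 under both, at 0.83, 0.54 and 0.54 with all libraries, while Fkbp9, Fkbp14 and Fkbp1a lie within 0.2 of 0 and Fkbp7 has the widest bar.

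Levels of different genes were compared per kilobase of transcript length. With the longest annotated transcript, the order on CD was Fkbp9 (106.6 ± 8.14 CPM per kb), Fkbp1a (98.7 ± 5.31), Fkbp2 (58.0 ± 5.67), Ppib (29.7 ± 1.69), Fkbp11 (18.3 ± 1.42), Fkbp14 (6.87 ± 2.16), Fkbp7 (2.29 ± 0.688) and Ppia (0.145 ± 0.0745), each as mean ± SD (n = 4). The ranges of neighbours in that order overlapped only for Fkbp9 and Fkbp1a. On HFD the order was the same, with Fkbp11 at 32.5 ± 2.87 CPM per kb (SD, n = 3). There the ranges of Fkbp9 and Fkbp1a, of Fkbp1a and Fkbp2, of Fkbp14 and Fkbp7, and of Fkbp7 and Ppia overlapped.

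The order depended on which transcript set the length. The longest Fkbp11 transcript, of 2411 bases, keeps an intron, whereas the longest protein-coding one has 734 bases. With protein-coding transcripts, a choice made after seeing the data, Fkbp11 stood at 106.8 ± 9.44 CPM per kb on HFD (SD, n = 3) and at 60.2 ± 4.68 on CD (SD, n = 4). Ppib stood at 160.4 ± 36.4 CPM per kb on HFD and at 110.1 ± 6.26 on CD. Only 3 of the 8 genes (Fkbp14, Fkbp7 and Ppia) kept their place on CD, so the place of Fkbp11 among the ER isomerases is not fixed by these data.

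**Figure D3:**
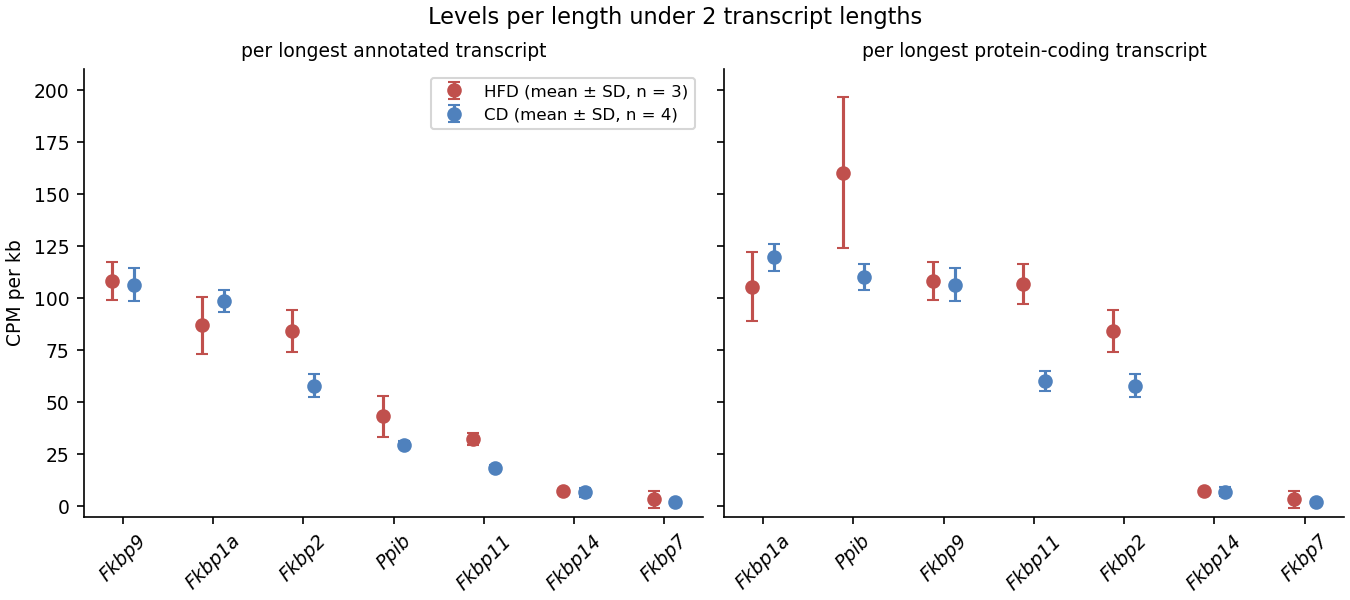
Levels in CPM per kb (mean ± SD; HFD n = 3, CD n = 4) with the length of the longest annotated transcript on the left and of the longest protein-coding transcript on the right; Ppia, under 1 CPM per kb, is not drawn. On HFD, Fkbp11 stands at 32.5 on the left and 106.8 on the right, and Ppib at 43.3 and 160.4, while Fkbp2, Fkbp9 and Fkbp7 keep their values.

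Among the other prolyl isomerases, log2 fold changes lay on both sides of 0. Of 27 in the table, 23 were tested, of which 15 had a positive value and 8 a negative one, against 42.1% above 0 among all genes tested, and their median was 0.10, against -0.08 over all genes. None had HFD libraries all above the CD libraries (4.03% of all genes) or all below them (5.37% of all genes). Ppig, a nuclear cyclophilin with an arginine- and serine-rich tail, had an unadjusted p under 0.05. It was the 1 gene of the 23 that did, while 5.77% of all genes did. It had 67.5, 90.3 and 81.3 CPM on HFD, against 64.2, 67.5, 51.5 and 59.6 CPM on CD, a log2 fold change of 0.39 (SE 0.16; adjusted p = 0.854 and unadjusted p = 0.0339, edgeR). Without HFD replicate 3 it was 0.28 with an unadjusted p of 0.115 (edgeR). Over the whole list, 0 genes were then higher at an unadjusted p under 0.05 in edgeR (2.99% of all genes). In the same fit 1 was lower, against 488 of the 12784 genes tested. The largest log2 fold change among those named, 0.80 for the spliceosomal cyclophilin Ppie, came to 0.09 without that library.

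Among FKBPs outside the ER, Fkbp8, Fkbp4 and Fkbp3 overlapped between diets. Fkbp8, which sits on the outer mitochondrial membrane, had a log2 fold change of 0.19 (SE 0.12) and the Hsp90 co-chaperone Fkbp4 one of -0.10 (SE 0.16). The nuclear Fkbp3 had 0.14 (SE 0.26). The adjusted p-values of these 3 genes were 0.889 to 0.944 (edgeR). Fkbp10 and Ppic, the other prolyl isomerases of the secretory pathway, were at or under 0.555 CPM in every library and were not tested.

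Other genes of ER folding and protein entry lay mostly above 0. Among the ER members, Fkbp11 (chosen for its value), Fkbp2 and Ppib lay above 0 in every fit. Fkbp9 (0.02), Fkbp14 (0.09) and Fkbp7 (0.60, SE 1.34) changed direction between fits. Of 48 listed genes of ER folding and entry, all tested, 40 had a log2 fold change above 0 and 8 below it. The list also held the stress sensors Atf6, Ern1 and Eif2ak3 and the factor Xbp1. It held degradation genes of the ER as well (Herpud1, Syvn1, Sel1l, Derl1, Derl2, Derl3, Edem1, Edem2 and Edem3). The list was drawn up with earlier results of these data known. The median of the 48 was 0.17, against -0.08 over all genes. At an unadjusted p under 0.05 in edgeR, 14 were higher on HFD (against 2.86% of all genes) and 0 lower (2.91% of all genes). The degradation genes Syvn1 and Edem2 were among the 14. None passed after adjustment in edgeR (0.0% of all genes), while 7 did in DESeq2 (1.11% of all genes). HFD replicate 2 weighed on the number above 0: without it 25 of the 48 were above 0 with a median of 0.03. Over all genes 38.9% were then above 0 and the median was -0.14. At an unadjusted p under 0.05 in edgeR, 10 of the 48 were higher in that fit, against 402 of 12532 genes tested. Without HFD replicate 3, 46 of the 48 were above 0 with a median of 0.25, while over all genes 45.2% were above 0 and the median was -0.04. In that fit 20 of the 48 were higher at an unadjusted p under 0.05 in edgeR (2.99% of all genes). The 4 genes of lowest p were Ssr4, a subunit of the translocon-associated complex, the disulfide isomerases Pdia6 and P4hb, and the BiP co-chaperone Dnajc3.

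Ssr4 had 392.6, 439.2 and 364.1 CPM on HFD, against 217.0, 304.9, 264.0 and 251.7 CPM on CD, a log2 fold change of 0.62 (SE 0.13). Pdia6 had 1125, 994.2 and 1008 CPM on HFD, against 818.2, 815.1, 829.3 and 716.3 CPM on CD, a log2 fold change of 0.39 (SE 0.09). For Dnajc3 the log2 fold change was 0.38 (SE 0.09) and for P4hb 0.35 (SE 0.08). The diets did not overlap in any of the 4, and their adjusted p-values were 0.633 to 0.66 in edgeR and 0.000791 to 0.00292 in DESeq2. Over the whole list, 14 of the 48 genes had all HFD libraries above all CD libraries (4.03% among all genes) and 1 had all below (5.37% among all genes). That 1 gene, singled out after its values were seen, was Ern1 (the ER stress sensor IRE1). It had 118.3, 48.1 and 128.6 CPM on HFD, against 141.5, 129.3, 154.3 and 139.7 CPM on CD, a log2 fold change of -0.52 (SE 0.29; adjusted p = 0.878, edgeR), which was -0.21 without HFD replicate 3. Xbp1, the transcription factor downstream of IRE1 and also singled out, had a log2 fold change of -0.14 (SE 0.13), which was -0.02 without HFD replicate 3. Hspa5, which encodes BiP and was chosen likewise, had one of 0.16 (SE 0.14), which was 0.22 without that library. Xbp1 and Hspa5 had overlapping libraries, as did the sensors Atf6 (-0.04, SE 0.19) and Eif2ak3 (0.27, SE 0.16). Other genes of the list went the other way from Ern1. Among them, also singled out, Sdf2l1 (0.50, SE 0.14), Manf (0.33, SE 0.11) and Syvn1 (0.43, SE 0.13) had all HFD libraries above all CD libraries. Whether a stress response differed between the diets was not tested.

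**Figure D4:**
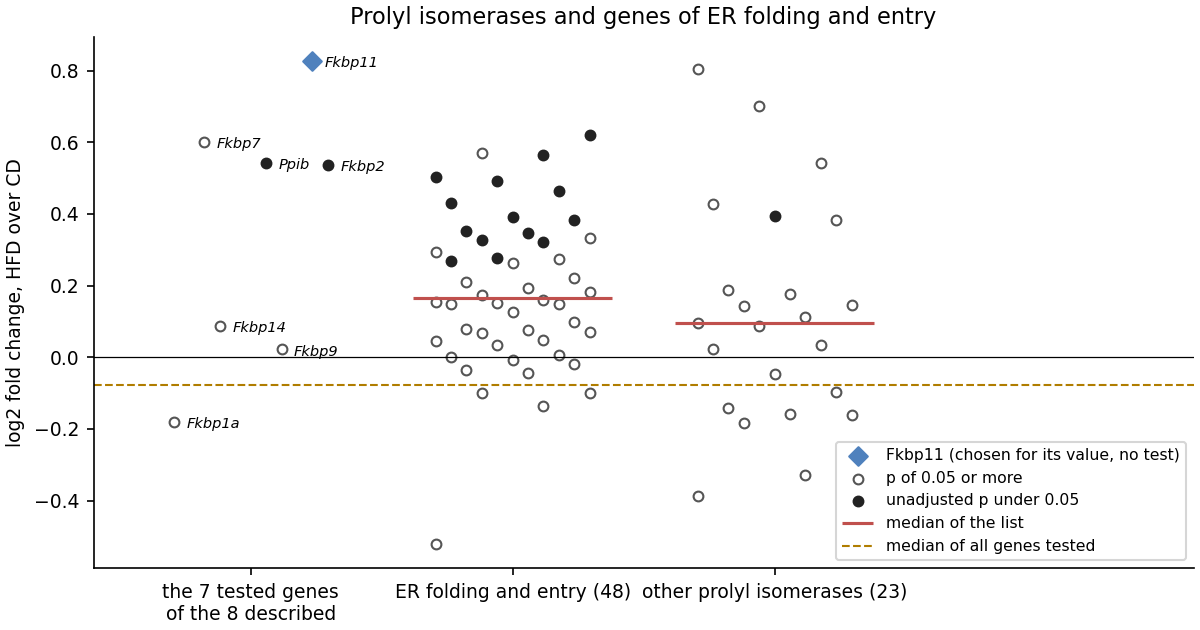
Log2 fold change, HFD over CD, of each tested gene among the 8 described, the 48 genes of ER folding and entry and the 23 other prolyl isomerases; filled circles had an unadjusted p under 0.05 in edgeR, red lines mark list medians (0.17 and 0.10) and the dashed line the median of all genes (-0.08). Filled circles are 14 of 48 among the ER genes and 1 of 23 among the other isomerases; horizontal position within a list carries no meaning.

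Genes that work with prolyl isomerases on collagen did not share one direction. The 12 that were tested split evenly, 6 positive and 6 negative, around a median of 0.05. Without HFD replicate 3, 7 of the 12 were positive and the median was 0.23. Plod3, a lysyl hydroxylase of the ER, had 47.6, 45.4 and 46.9 CPM on HFD, against 35.5, 31.4, 28.6 and 35.7 CPM on CD, a log2 fold change of 0.51 (SE 0.17; adjusted p = 0.817 and unadjusted p = 0.0147, edgeR). It was the 1 gene of that list of 12 with an unadjusted p under 0.05, against 5.77% of all genes. Of 10 tested genes through which FK506 and cyclosporin act or which bind Fkbp1a, 4 had a positive and 6 a negative value, and the median was -0.02. Among them, 0 reached an unadjusted p under 0.05 in edgeR (5.77% of all genes) or an adjusted one in DESeq2 (1.11% of all genes). Without HFD replicate 3, 1 of these 10 was positive and the median was -0.14.

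Among 6602 tested genes with a mean of at least 20 CPM, Fkbp11 was set beside every other gene by the root mean square difference of log2(CPM + 1) values over the 7 libraries, each gene centred on its own mean. The median difference was 0.500. The nearest were Fam104a (0.146), Uqcr11, a subunit of respiratory complex III (0.176), Fkbp2 (0.177), Dym, a Golgi-associated protein (0.181), and Plod3 (0.182). Ppib stood at 0.266, Fkbp9 at 0.414 and Fkbp1a at 0.502. Of these 4 members, Fkbp2 was nearest to Fkbp11 and Fkbp1a was about as far as the median gene, while Fkbp7, Fkbp14 and Ppia were under the minimum of 20 CPM and were not compared. All 7 points are shared by both genes in each case, and the diet difference that chose Fkbp11 is part of the measure.

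**Figure D5:**
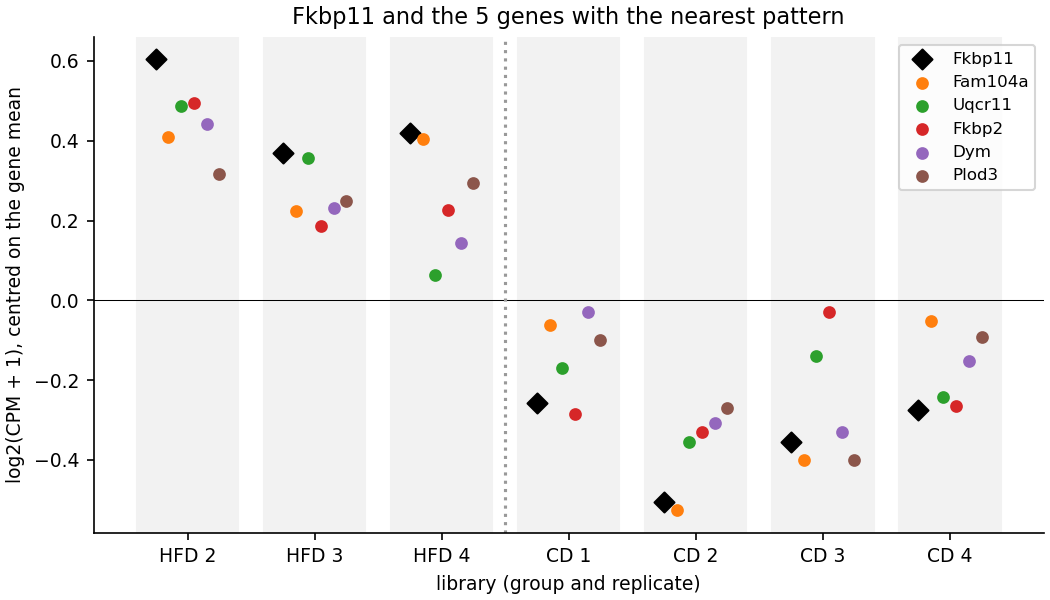
Log2(CPM + 1), centred on each gene's mean, of Fkbp11 (black diamonds) and the 5 genes of nearest pattern in the 3 HFD and 4 CD libraries. All 6 genes lie above their own mean in each HFD library and below it in each CD library.

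Some markers of other pancreatic cells were detected, at levels that differed between libraries. The summed acinar markers, of cells that also make much secretory protein, came to 2528, 1.10 and 1031 CPM in HFD replicates 2, 3 and 4, against 65.2, 3154, 424.9 and 627.1 CPM in CD replicates 1 to 4. The ranges of the 2 diets overlapped. Of the 10 acinar markers 9 were detected and Amy2a5 was at 0. Of the 10 B and plasma cell markers, Cd79b, Ms4a1, Tnfrsf17 and Pou2af1 were at 0. Their sum was 0 to 6.50 CPM on HFD and 6.82 to 11.2 CPM on CD over the 10, without overlap. The 9 fibroblast and stellate markers summed to 0.0915 to 20.8 CPM on HFD and 9.06 to 18.8 CPM on CD, with Pdgfra, Pdgfrb and Lum at 0. Sums for α-cells were 189.1 to 262.5 CPM on HFD and 116.2 to 378.4 CPM on CD. Among them Gc had 105.9 to 118.4 CPM on HFD and 30.0 to 70.8 CPM on CD, without overlap. All HFD libraries lay above all CD libraries in 4.03% of all genes tested. Gcg had 67.3 to 147.2 CPM on HFD and 71.9 to 297.5 CPM on CD, which overlapped. Of the 4 α-cell markers tested, 1 was higher on HFD at an unadjusted p under 0.05 in edgeR (2.86% of all genes). In DESeq2, 1 passed the adjusted threshold (1.11% of all genes). Of the 10 β-cell markers, all tested, 1 was higher at an unadjusted p under 0.05 in edgeR (2.86% of all genes). For 1 the adjusted threshold was passed in DESeq2 (1.11% of all genes). The HFD libraries lay all above the CD libraries in 2 of the 10 (4.03% of all genes) and all below in 1 (5.37% of all genes). Sums for δ- and PP-cells were 493.5 to 688.8 CPM on HFD and 461.9 to 1323 CPM on CD. Ductal markers summed to 166.5 to 260.7 CPM on HFD and 189.1 to 277.5 CPM on CD, macrophage markers to 29.3 to 51.0 CPM on HFD and 47.9 to 74.3 CPM on CD, and endothelial markers to at most 1.33 CPM on HFD and 0.922 CPM on CD. The part of these cells in the results for Fkbp11 and the other genes was not tested.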

How the data were processed

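β-cells were isolated by flow cytometry, RNA was prepared with TRIzol, and libraries were made with a stranded mRNA kit, per the labels. The deposited file holds raw counts per gene symbol, which the authors made against mm10, and edgeR is named in their processing notes; the aligner, the counter, its use of strand and its handling of reads that fit several genes were not given in the sources used here. 27 entries whose symbols had turned into dates were left out (at most 0.155% of counts). Replicates are separate mice.

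Counts were fitted in edgeR 4.0.16 (R 4.3.3) with filterByExpr, TMM factors and the quasi-likelihood test (two-sided), HFD against CD, without covariates. DESeq2 1.42.0, limma-voom 3.58.1, other scalings and filters, a replicate block and leaving out each library served as alternatives. The fitting code was tested on simulated data. Annotation came from GENCODE for GRCm38, where 94.5% of symbols matched, and promoters from RefSeq. Genes named were the 8 members, the up to 4 genes of lowest p in each list and the 5 genes of nearest pattern. Some genes that this rule names are not reported here. The members and the lists were chosen with earlier results of these data known. Intervals for counts of 0 cover counting error only.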

Additional observations from a re-analysis of the deposited data

How the results depend on the processing

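The log2 fold change of Fkbp11 stayed between 0.75 and 0.86 over 17 alternatives, with each of the 7 libraries left out among them. Fkbp2 stayed between 0.42 and 0.60 and Ppib between 0.33 and 0.62, both above 0 throughout. With DESeq2, Fkbp2 passed the threshold (0.54; adjusted p = 0.0103). Genes with small or thinly counted differences changed direction. For Fkbp14 the range with 1 library left out was -0.055 to 0.29 (-0.031 without HFD replicate 3), for Fkbp7 -0.81 to 1.17 and for Fkbp9 -0.058 to 0.074 (-0.01 without CD replicate 2 and -0.01 without CD replicate 4), and limma-voom gave -0.95 for Fkbp7. These causes were not tested. The number of genes at an adjusted p under 0.05 was 23 in edgeR's likelihood ratio test, 10 in its exact test, 137 in DESeq2 and 0 to 2 with 1 library left out. At an unadjusted p under 0.05 there were 1319 genes in DESeq2 and 474 to 1119 with 1 library left out, the lowest without CD replicate 1 and the highest without HFD replicate 4, against 713. With upper-quartile factors 59.7% of the calls were higher on HFD, against 49.5%. The ER genes above 0 numbered 25 to 46 of 48 with 1 library left out. With protein-coding lengths, chosen after seeing the data, 3 of 8 genes kept their place in the order of levels on CD.

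HFD and CD libraries shared the replicate numbers 2, 3 and 4. Deviations of same-numbered libraries correlated at 0.0253, 0.00424 and 0.0816, and those of libraries with unlike numbers at -0.0567 to 0.0202. With so few libraries, these values cannot decide whether the mice were paired. The main fit did not take the numbers as pairs, and a fit with a replicate block was run beside it. With the replicate block, 375 genes reached an unadjusted p of less than 0.05 in edgeR, 35.7% being higher on HFD. Of the other 7 members, 3 (Fkbp2, Ppib and Fkbp9) were above 0, and Ppia was not tested. Fkbp1a, Fkbp14 and Fkbp7 were below 0. Over all genes tested, 38.45% were above 0 in that fit. Under this block the log2 fold change was -0.033 for Fkbp14 and -0.71 for Fkbp7. With 3 mice against 4, no limit below the spread shown between libraries can be set.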
